A study of Mus musculus with 24 samples.

Results

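Non-canonical CD8+ dendritic cells (NC_CD8) were compared with canonical CD8+ dendritic cells (C_CD8), both sorted from the spleen of wild-type (WT) mice. The comparison uses 6 of the 24 RNA-seq libraries of the study: 3 of NC_CD8 WT cells and 3 of C_CD8 WT cells, chosen by their labels alone. Per the labels, the donors of both subsets were F1 mice of a C57BL/6 by FVB/N cross with the genotype Flt3 +/+, so neither group carries the Flt3 ITD allele found in the other arm of the study. Each subset has 1 library in each of 3 experiment batches, B, C and D, and the batch letters match the libraries of both subsets. Per the series design text the replicates are independent experiments. Sort gates, age and sex of the mice and animals per library were not stated in the labels. A gene whose protein served as a sort marker cannot be told apart from a gene found independently of the sort. RNA was measured in bulk from each sort, so fewer cells of a type and less RNA per cell cannot be told apart.

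Splenic dendritic cells take up antigen and present it to T cells. The canonical CD8+ type, also called cDC1, depends on the transcription factors IRF8, BATF3 and ID2, bears the chemokine receptor XCR1, takes up dead cells and presents their antigens on MHC class I molecules, which is called cross-presentation. Plasmacytoid dendritic cells depend on TCF4 (also called E2-2) and sense viral nucleic acids through endosomal Toll-like receptors. The CD11b+ type, cDC2, depends on IRF4 and on Notch signalling for part of its cells. Non-canonical CD8+ cells of mouse spleen were defined in earlier work as CD8+ cells that lack XCR1 and carry the chemokine receptor CX3CR1 and plasmacytoid genes.

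The 6 libraries held 14112020 to 20821930 counts in NC_CD8 cells and 19738620 to 21270127 in C_CD8 cells. Levels are given as CPM, reads scaled to a common library size by the TMM method, always in the order batch B, C, D. CPM is not scaled by gene length, so levels are compared between groups of libraries and not between genes. Of the genes in the table, 18093 passed the filter on low counts. Markers of splenic dendritic cells were present in every library of both subsets. Cd8a, the gene of the antigen that both subsets share, had 383, 355 and 373 CPM in NC_CD8 cells, against 693, 672 and 628 CPM in C_CD8 cells. Zbtb46, a transcription factor of conventional dendritic cells, had 352, 365 and 371 CPM in NC_CD8 and 277, 319 and 242 CPM in C_CD8 cells. The first principal component of the 6 libraries held 57.2% of the variance and separated the subsets, and the second, with 19% of it, set batch B apart from batches C and D in both. Xist was read in batch B of both subsets and had 0 reads in batches C and D.

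Markers of other spleen cells were present at low to moderate levels and not evenly. The summed level of 13 red pulp macrophage markers was 97.3, 1105 and 323 CPM in NC_CD8 libraries, against 402, 728 and 694 CPM in C_CD8 libraries, and 1 marker was called higher and 1, Treml4, lower. Treml4 stood at 8.34, 18.2 and 4.14% of its C_CD8 level in batches B, C and D. The sums hold it, and sums without it are not given here. The 10 erythroid markers summed to 7.22, 386 and 213 CPM in NC_CD8, against 43.2, 80.5 and 76.7 CPM in C_CD8 libraries. Macrophage and erythroid sums were thus highest in the NC_CD8 library of batch C and lowest in that of batch B, and the groups overlapped. The 16 T cell markers summed to 175, 280 and 242 CPM in NC_CD8, against 69.6, 30.0 and 53.4 CPM in C_CD8 libraries. The 13 NK cell markers summed to 226, 343 and 363 CPM in NC_CD8, against 17.7, 19.4 and 16.8 CPM in C_CD8 libraries, and Khdc1a had 0 reads in both groups. The 12 neutrophil markers summed to at most 41.4 CPM in NC_CD8 and 20.5 CPM in C_CD8 libraries, with Mpo, Elane and Camp at 0 reads in NC_CD8 and Ly6g, Ltf and Mmp8 at 0 in C_CD8 libraries. The part of such cells in the results was not tested.

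Which genes distinguish non-canonical from canonical CD8+ cells was asked of all 18093 genes in an edgeR quasi-likelihood model of the 24 libraries. Differences are log2 of NC_CD8 over C_CD8, with the standard error (SE) of the fit, and a gene was called where its p, adjusted by Benjamini and Hochberg over all genes, was under 0.05. In NC_CD8 cells 2253 genes were higher, which is 12.5% of those tested, and 2275 were lower, which is 12.6%. The median difference over all genes was -0.005. With the experiment batch as a block in the fit 3718 genes were higher, or 20.5%, and 3885 lower, or 21.5%, which is 42.0% in either direction. That fit called again 2251 of the higher and 2273 of the lower genes. The NC_CD8 libraries were all above the C_CD8 libraries for 18.8% of the genes tested and all below them for 20.7%. Counts of called genes in the lists below are to be read beside the 12.5% higher and 12.6% lower over all genes. With the batch block they are to be read beside 20.5% and 21.5%. The lists were not tested against these shares.

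**Figure D1:**
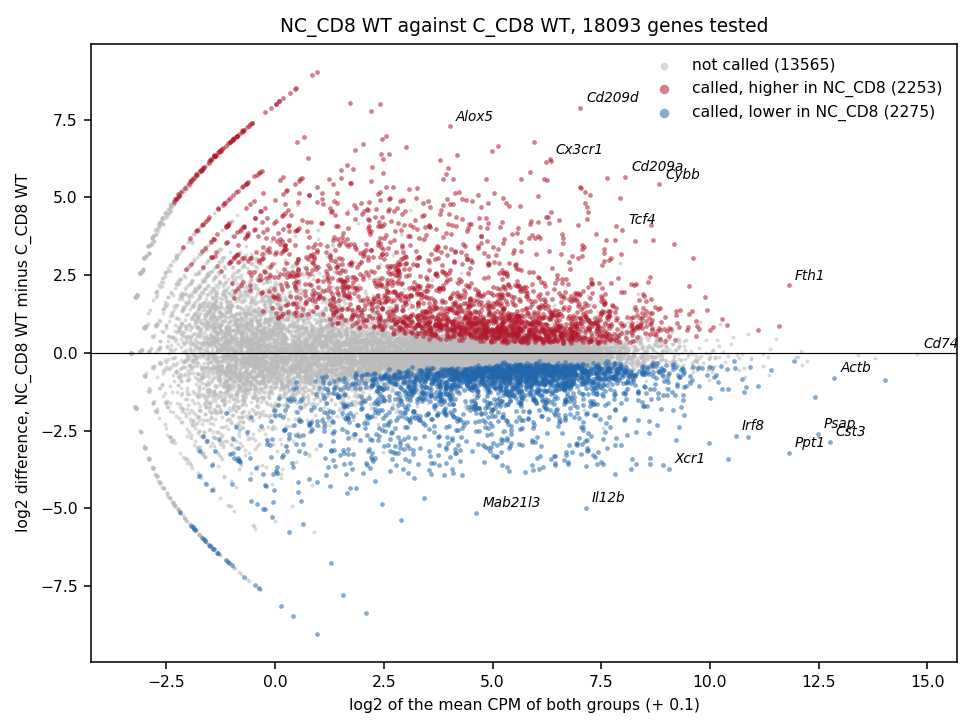
Each point is a gene, with the log2 of its mean CPM over both groups plus 0.1 on the horizontal axis and its log2 difference, NC_CD8 WT minus C_CD8 WT, on the vertical axis. Red points are the 2253 genes called higher and blue points the 2275 called lower, with Cd209d and Cx3cr1 high among the red points and Il12b and Xcr1 among the blue ones.

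A difference beyond 3 on the log2 scale was found for 564 higher genes and 210 lower genes, and beyond 5 for 168 higher and 34 lower genes, some of them with few reads. Tested against a log2 difference of 1 rather than 0, 759 genes (4.19%) were higher and 388 (2.14%) lower, 6.34% in all. When any 1 of the 6 libraries was left out, the count of called genes ran from 3024, without the NC_CD8 library of batch D, to 4052, without that of batch B. Called in every such fit were 1435 of the higher and 1148 of the lower genes. Gene by gene calls below held in each fit without 1 library and with the batch block unless a sentence says otherwise.

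Cd209d (ENSMUSG00000031495, mm10 chromosome 8, 3871824 to 3878555, minus strand) encodes a lectin of the DC-SIGN family that binds sugars of microbes. It had 229.9, 232 and 312 CPM in NC_CD8 libraries and 1.61, 0.910 and 0.729 CPM in C_CD8 libraries. The groups lay far apart, and the difference was 7.89 ± 0.38 (± SE, adjusted p = 7.48e-10). Cx3cr1 (ENSMUSG00000052336, chromosome 9, 119901616 to 120069879, minus strand), the receptor of fractalkine, had 117, 173 and 180.0 CPM in NC_CD8 libraries and 2.50, 2.30 and 1.46 CPM in C_CD8 libraries. Its difference was 6.23 ± 0.62 (adjusted p = 1.06e-06), with the NC_CD8 library of batch B below those of batches C and D and all far above C_CD8. Tcf4 (ENSMUSG00000053477, chromosome 18, 69343356 to 69689079, plus strand), the plasmacytoid lineage factor, had 434, 418 and 572 CPM in NC_CD8 libraries, against 30.2, 26.9 and 34.3 CPM in C_CD8 libraries. The libraries of each subset differed little, and the difference was 3.96 ± 0.20 (adjusted p = 7.48e-10).

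Xcr1 (ENSMUSG00000060509, chromosome 9, 123852315 to 123862029, minus strand), the receptor of the chemokine XCL1 and a defining gene of canonical cells, ran the other way. It had 52.0, 148 and 22.1 CPM in NC_CD8 libraries and 657, 1223 and 1074 CPM in C_CD8 libraries, a difference of -3.73 ± 0.57 (adjusted p = 0.000104). Xcr1 was low but not absent in NC_CD8 cells, where it differed more between libraries than in C_CD8 cells, with the most in batch C and the least in batch D.

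**Figure D2:**
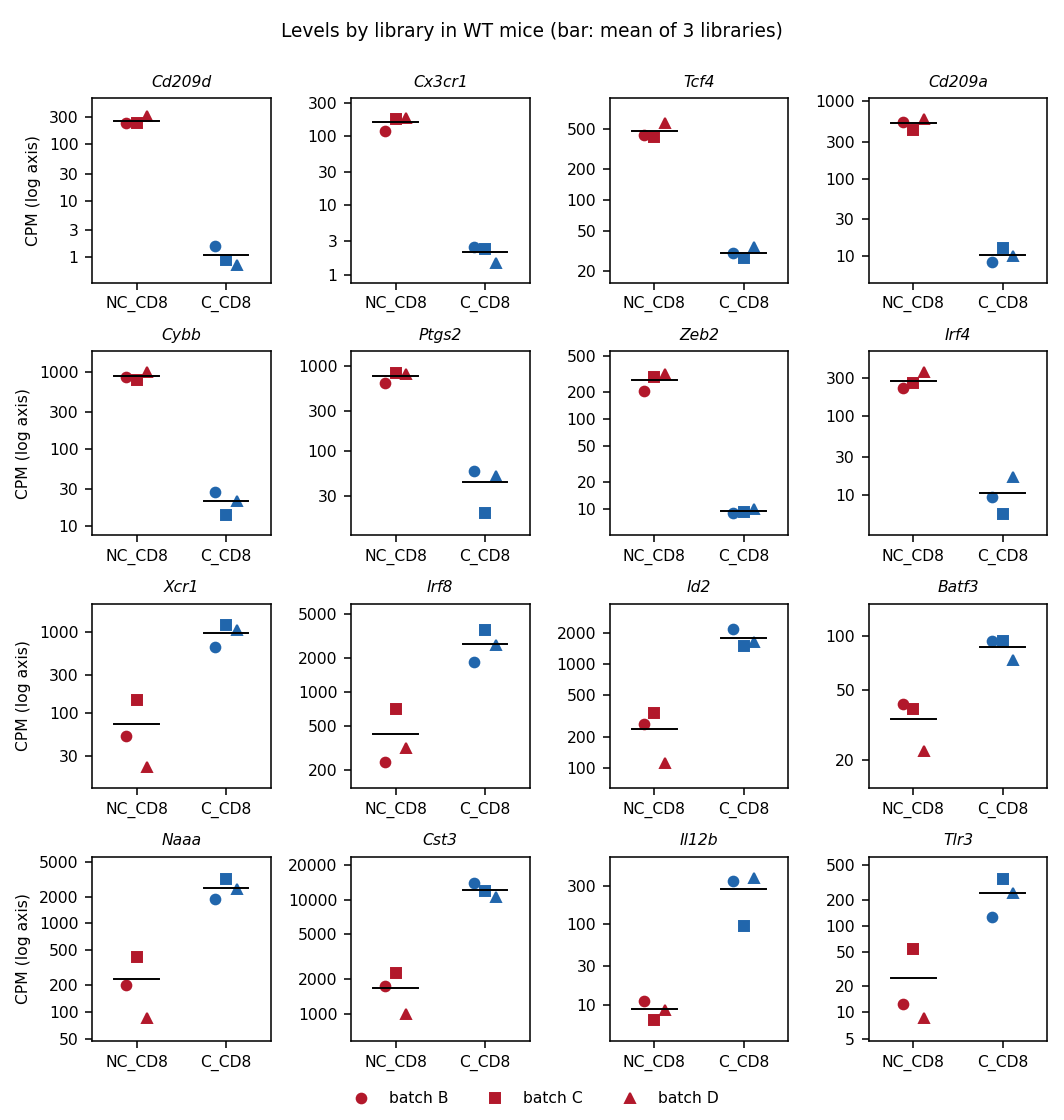
CPM on log axes of 16 genes in the 3 NC_CD8 WT libraries (red, left) and the 3 C_CD8 WT libraries (blue, right). Symbols give the batch and bars the mean of 3 libraries, and the groups do not overlap for any gene shown.

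Sequences before the RefSeq starts of 4 genes are shown because Cd209d and Cd209a stand in a gene cluster whose 5 tested members were all higher, and because Cx3cr1 and Xcr1 lie on the same chromosome and moved in opposite directions. Each run is the 250 bases before the RefSeq transcript start (build GRCm38.p6, the assembly behind mm10), read 5′ to 3′ on the strand of the gene, which is the minus strand for all 4. The RefSeq starts differ from the gene spans given above for Cx3cr1, whose window lies inside its span, and for Cd209d, whose window overlaps the end of its span. Capitals mark the E-box CANNTG, the letters that TCF4 and related factors bind.
Cd209d, chr8:3878500-3878749: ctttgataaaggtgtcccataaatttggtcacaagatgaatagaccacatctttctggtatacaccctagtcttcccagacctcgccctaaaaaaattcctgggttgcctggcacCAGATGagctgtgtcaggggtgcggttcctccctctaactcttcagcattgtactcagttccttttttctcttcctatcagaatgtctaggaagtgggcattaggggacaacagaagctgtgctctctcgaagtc
Cd209a, chr8:3748985-3749234: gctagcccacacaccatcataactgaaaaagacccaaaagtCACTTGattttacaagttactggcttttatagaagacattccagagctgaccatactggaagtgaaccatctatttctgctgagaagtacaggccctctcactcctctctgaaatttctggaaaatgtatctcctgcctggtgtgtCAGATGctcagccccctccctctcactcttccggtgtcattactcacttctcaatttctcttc
Cx3cr1, chr9:120068297-120068546: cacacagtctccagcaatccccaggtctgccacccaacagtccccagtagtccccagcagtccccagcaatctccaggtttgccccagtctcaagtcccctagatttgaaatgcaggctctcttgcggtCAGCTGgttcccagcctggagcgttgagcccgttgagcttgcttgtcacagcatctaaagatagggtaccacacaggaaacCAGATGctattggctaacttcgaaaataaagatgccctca
Xcr1, chr9:123862030-123862279: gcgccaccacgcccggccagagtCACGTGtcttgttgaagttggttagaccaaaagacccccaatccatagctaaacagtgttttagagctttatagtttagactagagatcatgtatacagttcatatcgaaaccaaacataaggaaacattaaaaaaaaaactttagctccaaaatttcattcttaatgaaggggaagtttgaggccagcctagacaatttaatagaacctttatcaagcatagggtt

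Cd209a and Cx3cr1 hold 2 E-boxes each in these windows, and Cd209d and Xcr1 hold 1 each. The E-box is common: CANNTG stood in 60.3% of the 1646 windows of higher genes that had a RefSeq sequence, in 59.0% of the 1426 of lower genes and in 58.1% of the 11202 of all genes tested. Both strands were searched for every motif. CAGCTG, which is 1 form of CANNTG and stands once in the Cx3cr1 window, was in 13% of higher, 12.8% of lower and 11.7% of all windows. CACCTG, another form of it, was in 16.7% of higher, 14.3% of lower and 15.7% of all windows. AP-1 letters (TGANTCA) were in 4.13% of higher, 4.35% of lower and 4.44% of all windows. The interferon response motif was in 2.61% of higher, 3.72% of lower and 2.86% of all windows. PU.1 letters (GAGGAAGT) were in 3.34% of higher, 3.30% of lower and 2.75% of all windows. These differences were not tested. None of CACCTG and the last 3 motifs was in the 4 windows shown. A match is a run of letters and no measure of binding.

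Transcription factors of dendritic cell fate changed in both directions. Of 36 on the list, 13 were higher and 6 lower, with a median of 0.369, and with the batch block 20 were higher and 8 lower. Zeb2, which represses the canonical programme, had 201, 290.0 and 314 CPM in NC_CD8 libraries and 9.16, 9.25 and 9.89 CPM in C_CD8 libraries, a difference of 4.83 ± 0.36 (adjusted p = 6.49e-08). Irf4, the factor of cDC2 cells, had 221, 255 and 352 CPM in NC_CD8 and 9.47, 5.70 and 16.9 CPM in C_CD8 libraries, and differed by 4.69 ± 0.48 (adjusted p = 1.49e-06). Spib, a plasmacytoid factor, differed by 4.22, and Runx2, which lets plasmacytoid cells leave the bone marrow, by 3.53. Id3, an inhibitor of E proteins such as TCF4, was also higher, by 2.51.

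Irf8, a factor of the canonical lineage, had 238, 708 and 313 CPM in NC_CD8 libraries and 1842, 3575 and 2626 CPM in C_CD8 libraries, a difference of -2.68 ± 0.49 (adjusted p = 0.000598). Id2, the E protein inhibitor that canonical cells need, had 265, 338 and 112 CPM in NC_CD8 and 2172, 1504 and 1625 CPM in C_CD8 libraries, and differed by -2.89 ± 0.69 (adjusted p = 0.00468). Batf3 differed less, at 34.3 ± 10.4 CPM in NC_CD8 and 87.3 ± 11.7 CPM in C_CD8 cells (SD, n = 3 each; -1.34 ± 0.33, adjusted p = 0.00604). Mycl, which canonical cells need for T cell priming, differed by -1.53. Zbtb46 and the E protein genes Tcf3 and Tcf12 were not called, at 0.38 ± 0.16, 0.16 ± 0.18 and 0.09 ± 0.18, and Zbtb46 was called higher with the batch block (adjusted p = 0.0176).

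C-type lectins are receptors that bind sugars. Of 30 tested, 16 were higher and 4 lower, with a median of 1.657, and 11 to 16 were higher and 4 lower when any 1 library was left out. The 5 tested genes of the Cd209 cluster lie within 211.4 kb of chromosome 8 and were all higher. Cd209a had 542, 430.2 and 589 CPM in NC_CD8 libraries and 8.38, 12.5 and 9.95 CPM in C_CD8 libraries, a difference of 5.66 ± 0.29 (adjusted p = 7.48e-10). Cd209e had 183, 120.2 and 167 CPM in NC_CD8 and 5.10, 8.58 and 6.77 CPM in C_CD8 libraries, and differed by 4.52 ± 0.33 (adjusted p = 4.94e-08). Cd209c differed by 6.88, from few reads in C_CD8 libraries, and 15.7% of its 50-base words occur in transcripts of other genes, so its reads may be shared. Cd209b, at 0.758 ± 0.308 CPM in NC_CD8 and 0.0854 ± 0.0613 CPM in C_CD8 cells, was near the limit of detection, and its call was lost in 3 of 6 fits without 1 library.

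Among the other lectins, the galactose-binding lectins Clec10a and Mgl2 differed by 5.09 and 5.33. Clec7a (dectin-1), the receptor for fungal glucans, had 1426, 496 and 1249.8 CPM in NC_CD8 libraries and 190.4, 14.0 and 72.3 CPM in C_CD8 libraries, which is least in batch C of both subsets. It differed by 3.52 ± 0.98 (adjusted p = 0.013), and without the C_CD8 library of batch D by 3.37 (adjusted p = 0.051). Lower lectins included receptors known from canonical cells. Cd207 (langerin) had 38.6, 36.1 and 3.15 CPM in NC_CD8 and 473, 265 and 193 CPM in C_CD8 libraries (-3.57 ± 0.78, adjusted p = 0.00234). Ly75 (DEC-205), an uptake receptor, had 13.4, 29.4 and 9.53 CPM in NC_CD8 and 164, 191 and 236 CPM in C_CD8 libraries (-3.49 ± 0.44, adjusted p = 1.42e-05). Clec9a, the receptor for the actin of dead cells, kept more of its level, at 59.6, 87.1 and 55.3 CPM in NC_CD8 and 184, 314 and 304 CPM in C_CD8 libraries (-1.99 ± 0.30, adjusted p = 9.86e-05).

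Of 7 Siglec genes, which bind sialic acid, 4 were higher and 0 lower (median 2.268). Siglech, the plasmacytoid Siglec, had 258, 212 and 291 CPM in NC_CD8 libraries and 5.46, 6.76 and 7.03 CPM in C_CD8 libraries, a difference of 5.30 ± 0.60 (adjusted p = 4.42e-06). Cd33 differed by 5.82, and Siglecg by 2.71. Of 22 killer lectin-like receptor genes 5 were higher and 1 lower (median 1.42), and 8 and 2 with the batch block. In either direction the share called was near that over all genes, with and without the block. The counts were 8 and 0 without the NC_CD8 library of batch B, and 5 and 0 without any other library. Klra17 (Ly49Q) had 112, 121 and 137 CPM in NC_CD8 libraries and 2.03, 0.335 and 0.989 CPM in C_CD8 libraries, a difference of 6.79 ± 0.58 (adjusted p = 2.12e-07). Klrd1 (CD94) had 220.1, 258 and 276 CPM in NC_CD8 and 10.1, 4.74 and 3.85 CPM in C_CD8 libraries (5.33 ± 0.47, adjusted p = 2.69e-07). Klrd1 makes up most of the NK marker sum given above, and that sum moved the same way. The part of NK cells was not tested.

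Of 24 chemokine receptor genes 7 were higher and 2 lower (median 0.765), 7 and 4 with the batch block. Ccr1 had 144, 139 and 143 CPM in NC_CD8 libraries and 2.34, 1.92 and 4.63 CPM in C_CD8 libraries, a difference of 5.58 ± 0.50 (adjusted p = 3.2e-07). Ccr2, the receptor that draws monocytes to CCL2, had 309, 378 and 452 CPM in NC_CD8 and 30.6, 57.8 and 49.4 CPM in C_CD8 libraries (3.05 ± 0.40, adjusted p = 1.78e-05). Gpr183, the oxysterol receptor that positions dendritic cells in the spleen, differed by 3.18. The lower genes were Xcr1 and Cxcr3, and Cxcr3 differed by -2.63. Ccr7, the receptor for migration to T cell zones, was not called: it had 1185, 274 and 622 CPM in NC_CD8 and 1610.0, 348 and 965 CPM in C_CD8 libraries (-0.49 ± 0.80), and was called lower with the batch block (adjusted p = 0.00794). Its level followed the batch in both subsets.

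Of 25 chemokine ligand genes 2 were higher and 9 lower, with a median of -1.538, the lowest among the 27 lists that are not contamination or quality checks, and with the batch block 2 were higher and 12 lower. The rank of this median is no test, since the lists were chosen with earlier results of these data known. Ccl22, a ligand of the receptor CCR4, had 3.71, 6.30 and 11.6 CPM in NC_CD8 libraries and 132, 67.1 and 104 CPM in C_CD8 libraries, a difference of -3.82 ± 0.52 (adjusted p = 2.74e-05). Cxcl9, an interferon-induced ligand of CXCR3, had 22.7, 32.8 and 8.52 CPM in NC_CD8 and 351, 215 and 225 CPM in C_CD8 libraries (-3.62 ± 0.51, adjusted p = 4.22e-05). Ccl2 differed by -3.93, Cxcl16 by -2.76 and Cxcl10 by -2.49. The higher genes were Ccl9 and Xcl1. Ccl9 differed by 4.19, while Xcl1 had 0.674, 29.1 and 18.3 CPM in NC_CD8 and 0, 1.15 and 1.61 CPM in C_CD8 libraries (4.11 ± 1.17). Without the NC_CD8 library of batch C, where it was highest, Xcl1 differed by 3.35 (adjusted p = 0.0629), and 1 ligand was called higher.

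Of 22 cytokine genes 3 were higher and 7 lower (median -0.938). Il12b, a subunit shared by IL12 and IL23 that canonical cells secrete to induce type 1 T cell responses, had 11, 6.50 and 8.59 CPM in NC_CD8 libraries and 344, 96.6 and 382 CPM in C_CD8 libraries. Its difference was -4.98 ± 0.82 (adjusted p = 0.000215), and the C_CD8 library of batch C was the lowest of its group. Il15 differed by -3.08 and Tnf by -2.05. Il1b was not called, at 1373, 812 and 1291 CPM in NC_CD8 and 460.5, 362 and 904 CPM in C_CD8 libraries (1.01 ± 0.37), and was called higher with the batch block (adjusted p = 0.00601).

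Of 39 cytokine and growth factor receptor genes 15 were higher and 6 lower (median 0.726), 24 and 7 with the batch block. Csf1r, the receptor of macrophage colony-stimulating factor, had 383, 447 and 425 CPM in NC_CD8 libraries and 19.6, 33.7 and 48.6 CPM in C_CD8 libraries, a difference of 3.62 ± 0.69 (adjusted p = 0.000776). Flt3 itself, the receptor that drives dendritic cell development, had 902, 816 and 956 CPM in NC_CD8 and 440.1, 607 and 569.7 CPM in C_CD8 libraries (0.73 ± 0.13, adjusted p = 0.000364). Il2rg, the chain shared by several interleukin receptors, differed by 3.23, Il7r by 2.48, Lifr by 5.16 and Il6st by 1.89. Il15ra, which presents IL15 to other cells, was lower by -2.70, together with its ligand gene above, and Csf2ra, a chain of the GM-CSF receptor, by -1.26. Monocyte markers moved in part with these genes: 4 of 12, among them Csf1r, Ccr2 and Ly6c2, were higher and Lyz2 was lower, and their sum was 2501, 3342 and 3439 CPM in NC_CD8, against 1714, 1967 and 3091 CPM in C_CD8 libraries. The part of monocytes was not tested.

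Sensors of nucleic acids and microbes changed in both directions. Of 22 endosomal and cytosolic sensing genes 4 were higher and 7 lower (median 0.146), with the batch block 7 and 7, and 4 to 5 and 4 to 7 without any 1 library, fewest lower without the NC_CD8 library of batch D. Tlr3, the sensor of double-stranded RNA, had 12.5, 53.7 and 8.52 CPM in NC_CD8 libraries and 127, 348 and 236 CPM in C_CD8 libraries, a difference of -3.25 ± 0.66 (adjusted p = 0.00129). Tlr11 and Tlr12, which together sense profilin of Toxoplasma, differed by -3.34 and -2.92. In the other direction Tlr7, the sensor of single-stranded RNA in plasmacytoid cells, had 34.2, 29.7 and 36.9 CPM in NC_CD8 and 1.04, 3.02 and 1.87 CPM in C_CD8 libraries (4.07 ± 0.48, adjusted p = 5.91e-06). Slc15a4, a lysosomal transporter needed for TLR7 signalling, differed by 2.39, Tmem173 (STING) by 1.82 and Ddx58 (RIG-I) by 2.56. Unc93b1 and Irf7 were called lower in the fit of 24 libraries, and their calls in the other fits are not given here. In batches B, C and D, Unc93b1 stood at 78.5, 50.3 and 67.9% of the C_CD8 level and Irf7 at 71.4, 50.3 and 62.5%. Of 11 genes of surface Toll-like receptors 4 were higher and 2 lower (median 0.325), 4 and 4 with the batch block, and 3 to 4 and 1 to 3 without any 1 library. Tlr5, the flagellin sensor, had 26.4, 32.4 and 33.4 CPM in NC_CD8 and 1.25, 0.240 and 0 CPM in C_CD8 libraries (5.95 ± 0.92, adjusted p = 0.000111).

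Of 29 cross-presentation genes, 16 were lower and 2 higher (median -0.573), and without any 1 library 15 to 16 were lower and 0 to 1 higher. Genes of the cytosolic route to MHC class I were among the lower ones. Tap1, a chain of the peptide transporter, had 244, 210.4 and 176 CPM in NC_CD8 libraries and 539.5, 649 and 581 CPM in C_CD8 libraries, a difference of -1.49 ± 0.16 (adjusted p = 2.17e-06). The immunoproteasome genes Psmb8 and Psmb9 differed by -1.17 and -1.70, and Nlrc5, the activator of MHC class I genes, by -1.24. Wdfy4, which canonical cells need to cross-present cell-bound antigens, had 496, 642 and 491 CPM in NC_CD8 and 867, 1887 and 1726 CPM in C_CD8 libraries (-1.46 ± 0.26, adjusted p = 0.000444). Apol7c, which damages phagosome membranes, differed by -3.56, and Rab32 by -2.74. Words shared with other genes make up 25.6% of Apol7c, so its reads may be split between copies. The light chain of MHC class I, B2m, was not called (0.11 ± 0.22).

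The test called 4 higher and 1 lower among 16 MHC class II members (median 0.021), and without any 1 library 3 to 5 were higher and 0 to 1 lower. In either direction the share called was little above that over all genes. H2-Aa had 12515, 9084 and 10309 CPM in NC_CD8 libraries and 11659, 10643 and 10865 CPM in C_CD8 libraries (-0.06 ± 0.15), and the invariant chain gene Cd74 had 27827, 25832 and 29623 CPM in NC_CD8 and 23137, 30806 and 30285 CPM in C_CD8 libraries (-0.02 ± 0.11). Their groups overlapped. Among the higher genes H2-DMb2, a chain of the peptide loading factor, differed by 0.84, H2-Ob, a chain of its inhibitor, by 0.53 and Rfxank, part of the complex at MHC class II promoters, by 0.58. The lower gene, Rfxap (-0.40 ± 0.13), belongs to the same complex and was not called without the C_CD8 libraries of batches B and C or the NC_CD8 libraries of batches C and D.

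Lysosomal proteases and their inhibitors formed the list with the largest share of called genes among the 27 lists. Of 19, 13 were higher and 4 lower (median 1.371), and 12 to 13 and 4 without any 1 library. Ctsa (cathepsin A) had 518, 417 and 496 CPM in NC_CD8 libraries and 104, 103 and 103 CPM in C_CD8 libraries, a difference of 2.21 ± 0.12 (adjusted p = 1.43e-09) with little spread in either group. Ctss (cathepsin S), which trims the invariant chain, had 1233, 919.9 and 1129 CPM in NC_CD8 and 554, 548 and 519 CPM in C_CD8 libraries (1.02 ± 0.12, adjusted p = 7.59e-06). Ifi30, a lysosomal thiol reductase, differed by 1.43, Ctsh by 1.30 and Lgmn by 2.00. The lower genes were the protease inhibitor Cst3, the lysozymes Lyz1 and Lyz2, and Ctse. Cst3 (cystatin C) had 1742, 2266 and 996 CPM in NC_CD8 and 13922, 11977 and 10484 CPM in C_CD8 libraries, a difference of -2.86 ± 0.23 (adjusted p = 1.34e-07). The lysozyme genes share 16.1% (Lyz1) and 15.4% (Lyz2) of their words with other genes and are uncertain as single genes.

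**Figure D3:**
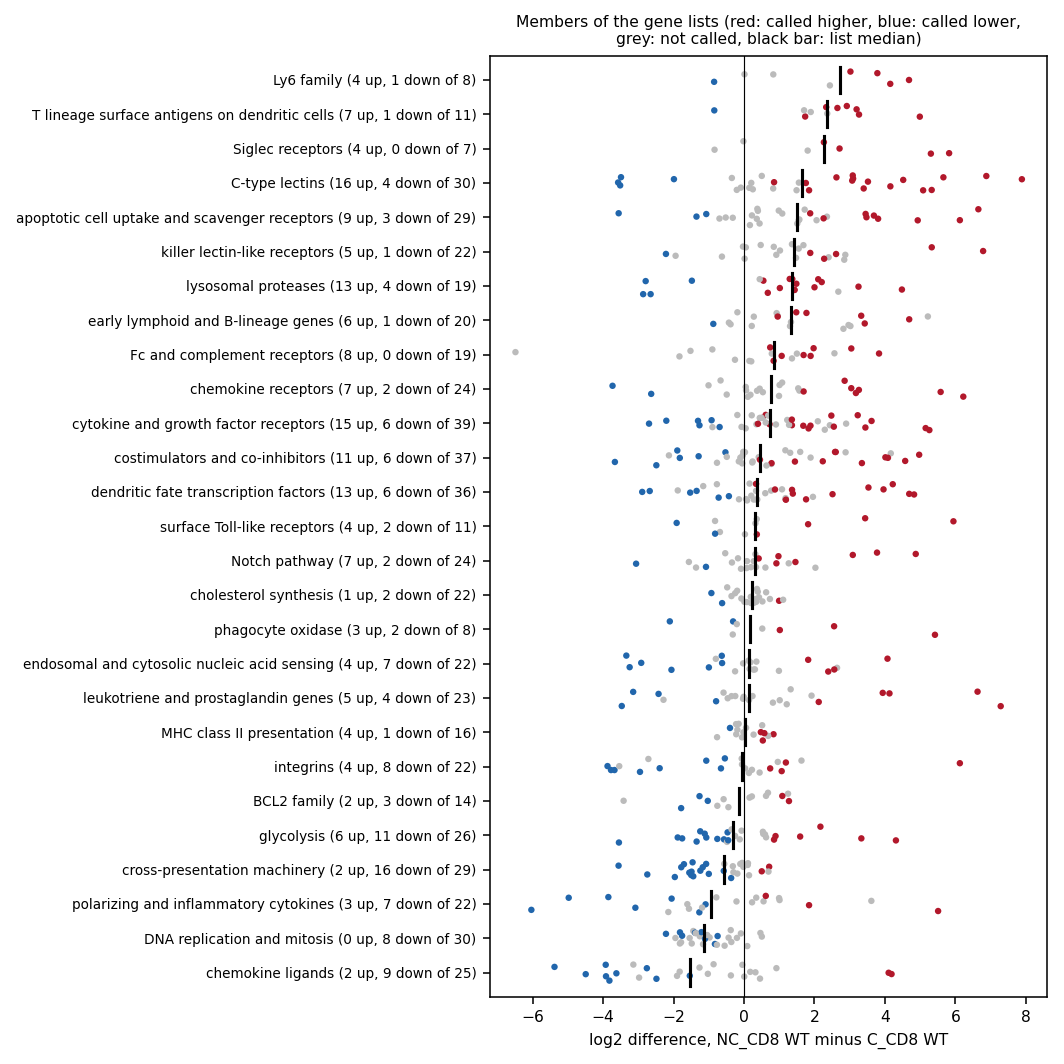
Log2 difference, NC_CD8 WT minus C_CD8 WT, of each tested member of 27 gene lists, in order of the list median (black bar). Red members were called higher and blue members lower. Chemokine ligands lie at the bottom with a median of -1.538, against -0.005 over all genes tested.

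The phagocyte oxidase, which makes superoxide in phagosomes, showed opposite changes of its subunits. Cybb, the catalytic membrane subunit, had 875, 799 and 1007 CPM in NC_CD8 libraries and 27.6, 13.9 and 21.0 CPM in C_CD8 libraries, a difference of 5.42 ± 0.50 (adjusted p = 4.77e-07). Ncf4, a regulatory subunit of the cytosol, had 50.2, 55 and 38.2 CPM in NC_CD8 and 221, 199 and 197 CPM in C_CD8 libraries (-2.11 ± 0.16, adjusted p = 6.51e-08). Hvcn1, the proton channel that sustains the oxidase, differed by 2.56. Of 8 genes in all, 3 were higher and 2 lower (median 0.157), and Rac1 (-0.31 ± 0.11) was no longer called lower when any 1 library was left out.

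Receptors for antibody and debris were higher more often than lower. Of 19 Fc and complement receptor genes 8 were higher and 0 lower (median 0.841). Fcer1g, the signalling chain shared by Fc receptors, had 264, 314 and 353 CPM in NC_CD8 libraries and 20.4, 20.6 and 24.3 CPM in C_CD8 libraries, a difference of 3.83 ± 0.20 (adjusted p = 1.05e-09). Fcgr2b, the inhibitory IgG receptor, differed by 1.89. Of 29 genes of apoptotic cell uptake and scavenging 9 were higher and 3 lower (median 1.512). Dab2, an endocytic adaptor, had 62.4, 62.6 and 82.7 CPM in NC_CD8 and 0.780, 0.144 and 1.15 CPM in C_CD8 libraries (6.65 ± 0.94, adjusted p = 4.22e-05). Itgb3, an integrin chain that binds opsonized dead cells, had 226, 92.7 and 122 CPM in NC_CD8 and 5.2, 1.05 and 0.0521 CPM in C_CD8 libraries (6.13 ± 1.06, adjusted p = 0.000319). Lrp1 differed by 3.81 and Cd300lf by 3.69. Cd36, a scavenger receptor of canonical cells, was lower, with 45.9, 89.8 and 10.8 CPM in NC_CD8 and 590.2, 608 and 532 CPM in C_CD8 libraries (-3.56 ± 0.50, adjusted p = 3.91e-05). The C1q genes, which red pulp macrophages also express, were not called. C1qb had 0.0481, 87.1 and 22.1 CPM in NC_CD8 and 0.364, 11.8 and 25 CPM in C_CD8 libraries (1.55 ± 1.44).

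Among 22 integrin genes 4 were higher and 8 lower (median -0.061). Itgae (CD103), the chain that binds E-cadherin, had 13.8, 18.1 and 3.15 CPM in NC_CD8 libraries and 72.8, 139.8 and 60.6 CPM in C_CD8 libraries, a difference of -2.95 ± 0.49 (adjusted p = 0.000228). Itga8 and Itga1 differed by -3.68 and -3.77. Itgam (CD11b) was higher by 1.07 and Itgax (CD11c) by 0.74, both at low to moderate differences beside that of Itgb3.

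Lipid mediator genes held some of the largest differences. Of 23 leukotriene and prostaglandin genes 5 were higher and 4 lower (median 0.143). Alox5, the lipoxygenase that starts leukotriene synthesis, had 24.6, 40.1 and 32.1 CPM in NC_CD8 libraries and 0, 0.575 and 0 CPM in C_CD8 libraries. The C_CD8 libraries of batches B and D had no read of it, and the fitted difference was 7.29 ± 1.09 (adjusted p = 7.88e-05). Lta4h, which makes leukotriene from the product of that enzyme, differed by 2.12. Alox5ap, which hands the substrate to ALOX5, was lower by -0.79. Ptgs2, the inducible cyclooxygenase, had 629, 829 and 819 CPM in NC_CD8 and 59.1, 18.8 and 52.2 CPM in C_CD8 libraries (4.13 ± 0.54, adjusted p = 2.13e-05), and the prostacyclin receptor Ptgir differed by 6.63.

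Of 11 T lineage antigens known from dendritic cells 7 were higher and 1, Cd8a, was lower (median 2.364). Cd8b1, the partner chain of Cd8a, had 30.1, 26.9 and 37.4 CPM in NC_CD8 libraries and 4.01, 2.87 and 2.92 CPM in C_CD8 libraries, a difference of 3.27 ± 0.42 (adjusted p = 1.76e-05), while Cd8a differed by -0.84. Cd4 had 163, 84.0 and 98.2 CPM in NC_CD8 and 16.6, 9.06 and 12 CPM in C_CD8 libraries (3.20 ± 0.49, adjusted p = 0.000108), and Cd7 differed by 4.99. T cell markers moved with these genes: 5 of 16 were called higher and 0 lower, or 10 without the NC_CD8 library of batch B and 3 without that of batch C or D or the C_CD8 library of batch B or C. Lck, a T cell kinase, had 1.30, 23.8 and 18.5 CPM in NC_CD8 libraries, against 2.29, 1.68 and 2.71 CPM in C_CD8 libraries, and Cd3g, a chain of the T cell receptor complex, had 0.433, 11.7 and 5.30 CPM in NC_CD8 and 0.260, 0.383 and 0.417 CPM in C_CD8 libraries. Both were near their C_CD8 level in the NC_CD8 library of batch B, which had the most Cd4 and Cd7. The sum of all 16 T cell markers was still higher in that library, at 175 CPM against 69.6 CPM in the C_CD8 library of batch B. The part of T cells was not tested.

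Of 20 early lymphoid and B lineage genes 6 were higher and 1 lower (median 1.321). Blnk, an adaptor of B cell receptor signalling, had 42.8, 41.9 and 67.8 CPM in NC_CD8 libraries and 1.40, 1.72 and 2.76 CPM in C_CD8 libraries, a difference of 4.69 ± 0.53 (adjusted p = 4e-06). Cd79b and Cd72 differed by 3.43 and 3.33. The 11 B cell markers summed to 88.0, 170 and 149 CPM in NC_CD8, against 59.1, 103 and 116 CPM in C_CD8 libraries, and Ms4a1 (CD20), a defining marker, was not called (-0.43 ± 0.38). Of 8 Ly6 genes 4 were higher and 1 lower (median 2.73). Ly6c2 had 43.8, 99.2 and 185 CPM in NC_CD8 and 4.21, 6.76 and 7.45 CPM in C_CD8 libraries (4.15 ± 0.69, adjusted p = 0.000232), though 14.5% of its words occur in other genes.

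Of 37 costimulator and co-inhibitor genes 11 were higher and 6 lower (median 0.453). Sirpa, the receptor of CD47 and a marker of cells other than cDC1, had 336, 477 and 486 CPM in NC_CD8 libraries and 26.5, 17.4 and 32.6 CPM in C_CD8 libraries, a difference of 4.09 ± 0.36 (adjusted p = 2.78e-07). Lag3, an inhibitory receptor also found on plasmacytoid cells, had 69.6, 58.3 and 92.7 CPM in NC_CD8 and 2.65, 2.06 and 2.29 CPM in C_CD8 libraries (4.97 ± 0.42, adjusted p = 2.12e-07). The inhibitory ligands Cd274 (PD-L1) and Pdcd1lg2 (PD-L2) differed by 2.24 and 2.61, and the activating ligand Tnfsf9 (4-1BBL) by 3.35. Btla was lower by -1.82 and Slamf8 by -2.49. Cd80 was not called (0.24 ± 0.59).

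Of 24 Notch pathway genes 7 were higher and 2 lower (median 0.3), but 4 and 1 without the NC_CD8 library or the C_CD8 library of batch D. Dtx1, a Notch target, had 46.9, 42.8 and 58.1 CPM in NC_CD8 libraries and 2.65, 5.41 and 2.66 CPM in C_CD8 libraries, a difference of 3.78 ± 0.38 (adjusted p = 1.36e-06). The receptor Notch3 was higher by 4.88 and Notch4 was lower by -3.06, while Notch2, the receptor that dendritic cells of the spleen need, was not called (0.28 ± 0.37).

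Of 26 glycolysis genes 6 were higher and 11 lower (median -0.302). Slc2a3, a glucose transporter, had 284, 233 and 308 CPM in NC_CD8 libraries and 23.4, 7.43 and 10.7 CPM in C_CD8 libraries, a difference of 4.31 ± 0.47 (adjusted p = 2.86e-06). Hk3, a hexokinase, had 10.2, 25.6 and 4.70 CPM in NC_CD8 and 130.0, 208 and 139 CPM in C_CD8 libraries (-3.55 ± 0.56, adjusted p = 0.000124). Other enzymes of the pathway differed less, such as Tpi1 (-1.11) and Eno1 (0.90). Of 22 cholesterol synthesis genes 1 was higher and 2 lower (median 0.24), 4 and 4 with the batch block, and 0 to 4 and 1 to 3 without any 1 library. In either direction the share called was below that over all genes, with and without the block.

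Of 30 DNA replication and mitosis genes 0 were higher and 8 lower (median -1.129), and 1 and 20 with the batch block. In either direction the share called was near that over all genes without the block, and above it with the block. The count of lower genes changed with single libraries: it was 0 without the C_CD8 library of batch B and 3, 4 and 1 without the NC_CD8 libraries of batches B, C and D. Rrm2, a subunit of ribonucleotide reductase, had 9.44, 18.7 and 10.3 CPM in NC_CD8 libraries and 62.4, 36.4 and 31.2 CPM in C_CD8 libraries, a difference of -1.76 ± 0.45 (adjusted p = 0.00829). Without the C_CD8 library of batch B, the highest of its group, it was -1.36 (adjusted p = 0.0557). Mki67, the proliferation marker, was not called (25.2, 39.7 and 35.9 CPM in NC_CD8 and 91.2, 71.9 and 60.7 CPM in C_CD8 libraries, -1.15 ± 0.56) and was called lower with the batch block (adjusted p = 0.00769). Of 14 genes of the BCL2 family 2 were higher and 3 lower (median -0.142), 5 and 6 with the batch block, and 1 to 2 and 1 to 3 without any 1 library. Pmaip1 (NOXA), which promotes apoptosis, differed by 1.09 and Bid by -1.78.

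Genes were also named by rule, as those with the largest log2 difference, the smallest p or the largest difference in CPM, 10 in each direction each. The higher genes not yet described included Cyp7b1, the enzyme that makes oxysterol ligands of GPR183. It had 38.2, 28.7 and 39.9 CPM in NC_CD8 libraries and 1.20, 0.0958 and 0 CPM in C_CD8 libraries, a difference of 6.36 ± 0.95 (adjusted p = 8e-05). Ripor2, an inhibitor of RhoA, had the smallest p of all genes, with 102, 123 and 111 CPM in NC_CD8 and 6.14, 5.41 and 6.35 CPM in C_CD8 libraries (4.23 ± 0.17, adjusted p = 8.79e-11). The phosphatase Ptprf differed by 6.49, the repressor Hr by 6.22, the growth factor receptor Fgfr1 by 3.57 and the Rap1 activator Rasgrp2 by 4.02. Dennd3 differed by 3.48 and Ms4a6b by 2.73.

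Among the highest expressed genes Fth1, the ferritin heavy chain, had the largest gain in CPM. It had 7134, 4496 and 6133 CPM in NC_CD8 libraries and 1462, 1299.9 and 1183 CPM in C_CD8 libraries, a difference of 2.17 ± 0.24 (adjusted p = 3.24e-06). Gm6977, annotated as a processed pseudogene, differed by 2.16. It had 1489, 891 and 1218 CPM in NC_CD8 and 302, 258 and 244 CPM in C_CD8 libraries, and so followed the level of Fth1 from library to library. Whether its reads come from Fth1 was not tested, and it is not to be counted as a separate change. Bhlhe40, a repressor of transcription, had 1406, 1145 and 1601 CPM in NC_CD8 and 228, 61.9 and 208 CPM in C_CD8 libraries (3.06 ± 0.71, adjusted p = 0.00389). The kinase Stk17b differed by 1.8 and Tbc1d4 by 1.38. The early response genes Zfp36 and Junb differed by 0.87 and 0.75; of the 18 handling stress genes 3 were higher and 2 lower, and Fos (0.45 ± 0.34) and Hspa1a (-0.77 ± 0.64) were not called. The part of handling was not tested.

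The lower genes named by rule were led by Mab21l3. It had 1.44, 2.07 and 0.470 CPM in NC_CD8 libraries and 59.9, 34.1 and 49.8 CPM in C_CD8 libraries, a difference of -5.13 ± 0.64 (adjusted p = 1.2e-05). Hepacam2 had 39.4, 39.0 and 6.11 CPM in NC_CD8 and 443, 351 and 471 CPM in C_CD8 libraries (-3.90 ± 0.69, adjusted p = 0.000385), with the least in the NC_CD8 library of batch D. Synpo2, Arc, Nudt17, Ocstamp and Itga3 differed by -4.67, -3.91, -3.87, -3.80 and -3.87. The genes with the smallest p included C9orf72 (-2.12), the G protein regulator Rgs10 (-2.79), the glutaredoxin Glrx (-2.73), the sphingomyelin synthase Sgms1 (-3.12), the glycosyltransferase Galnt7 (-2.17) and Pla2g16 (-2.89). BC028528 differed by -2.42 and Aph1c, a chain of gamma-secretase, by -1.82.

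Some named genes share sequence with other genes, so that their reads may be split between copies and their values are uncertain for a single gene. The share of their 50-base words found in transcripts of other genes was 66.3% for Itgam, 66.3% for Hspa1a, 50.3% for Rac1, 44.3% for BC028528, 39.7% for Hvcn1, 36.7% for Cd72, 31.0% for Rfxank, 27.5% for Il2rg, 26.0% for Eno1, 25.9% for H2-DMb2, 18.4% for Aph1c and 14.3% for Csf1r. It was 16.9% for Cxcl16, 16.4% for Bid, 13.1% for Mgl2, 12.5% for Gm6977, 12.4% for Cd274, 11.9% for Psmb8, 11.6% for Ctsa, 11.5% for Tnfsf9 and 10.8% for Xcl1. For Cd209a, Cd209d, Cd209e, Cx3cr1, Tcf4 and Xcr1 it was at most 1.63%.

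Genes abundant in C_CD8 cells lost most CPM. Psap (prosaposin), a source of lysosomal lipid-binding proteins, had 1665, 2004 and 1219.9 CPM in NC_CD8 libraries and 7762, 11360.0 and 10323 CPM in C_CD8 libraries (-2.59 ± 0.22, adjusted p = 1.61e-07). The lysosomal thioesterase Ppt1 had 628, 1159 and 308 CPM in NC_CD8 and 5736, 7213 and 6623 CPM in C_CD8 libraries (-3.22 ± 0.33, adjusted p = 1.53e-06). Naaa, an amidase known from canonical cells, had 202, 421 and 85.4 CPM in NC_CD8 and 1886, 3164 and 2418 CPM in C_CD8 libraries (-3.40 ± 0.43, adjusted p = 1.39e-05). All 3 genes were lower in each NC_CD8 library than in any C_CD8 library. The pore-forming protein gene Mpeg1 differed by -2.70, Malat1 by -1.41, Plbd1 by -1.05, and the actin-related genes Actb and Tmsb4x by -0.81 and -0.86. Not all of these genes were particular to canonical cells. Mpeg1 averaged 4841 CPM in WT plasmacytoid cells, against 3253 CPM in C_CD8 cells, while Ppt1 and Naaa averaged 244 and 17.5 CPM in plasmacytoid cells.

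The remaining level of the lower genes in NC_CD8 cells differed between batches. Over the 388 genes lower by the test against a log2 difference of 1, the NC_CD8 level was a median of 16.9%, 22.3% and 11.8% of the C_CD8 level in batches B, C and D. It was highest in batch C for 273 of them and lowest in batch D for 273. Xcr1 stood at 7.92, 12.1 and 2.06% of the C_CD8 level in batches B, C and D, and Naaa at 10.7, 13.3 and 3.53%. Cd36 stood at 7.78, 14.8 and 2.03% and Tlr3 at 9.80, 15.4 and 3.61%. Batf3 and Tap1, which differed less between the subsets, varied less between batches as a ratio, with Batf3 at 43.9, 41.8 and 30.4% and Tap1 at 45.3, 32.4 and 30.3%. The NC_CD8 library of batch C was also the one with the highest sums of macrophage and erythroid markers. Whether canonical cells were present among the sorted NC_CD8 cells was not tested.

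**Figure D4:**
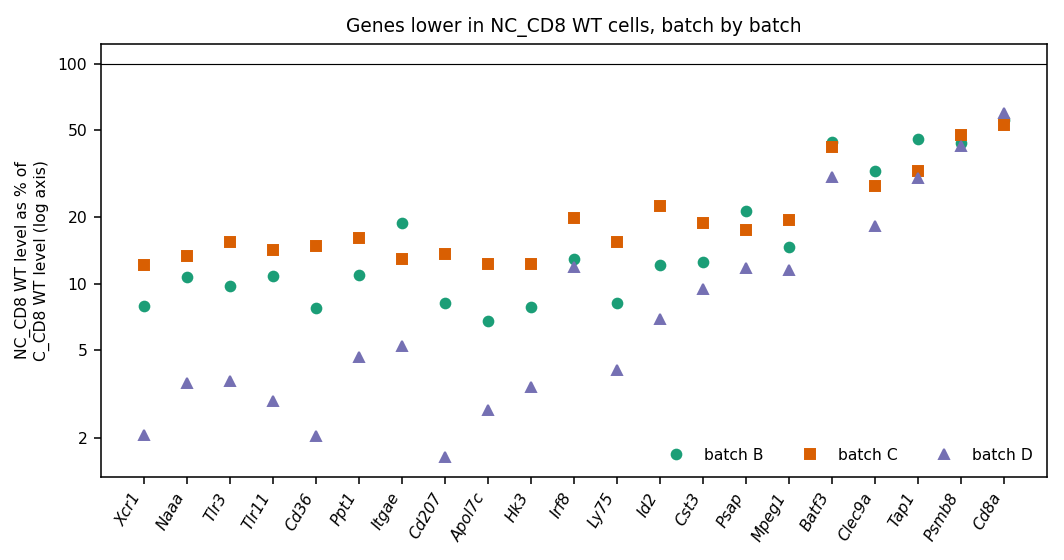
Level of 21 genes called lower, in NC_CD8 WT cells, as a percentage of the C_CD8 WT level of the same batch, on a log axis. The black line marks 100%. Batch D (triangles) lies lowest for Xcr1, at 2.06%, and batch C (squares) highest, at 12.1%, while Cd8a lies closest to the line.

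Set beside the other WT subsets of the study, the higher genes were found in several of them. These are plasmacytoid cells (PDC) and Esam-high and Esam-low CD11b+ cells (Esamhi, Esamlo), with 2 libraries each, and the PDC libraries come from batches A and B and the Esam libraries from C and D. Of the 2253 higher genes, 45.6% had their highest mean among these 3 subsets in PDC, 33.5% in Esamhi and 20.9% in Esamlo cells, against 42.4%, 28.9% and 28.6% of all genes tested. Of the 2275 lower genes, 32.5%, 23.9% and 43.6% did so in PDC, Esamhi and Esamlo cells. Tcf4 averaged 474 ± 84.6 CPM in NC_CD8 cells (SD, n = 3), 1137 in PDC, 75.1 in Esamhi, 105 in Esamlo and 30.5 ± 3.68 in C_CD8 cells (n = 3). Cd209d averaged 258 ± 46.7 CPM in NC_CD8 cells, 458 in PDC, 4.71 in Esamhi, 17.0 in Esamlo and 1.08 ± 0.467 in C_CD8 cells. Both genes were highest in PDC and next highest in NC_CD8 cells. Irf8 was also highest in PDC, at 4983 CPM on average, but next highest in C_CD8 cells, at 2681 ± 868 CPM. It averaged 420 ± 252 CPM in NC_CD8 cells, 681 in Esamlo and 206 in Esamhi cells, so NC_CD8 cells did not share its high level with PDC. Cx3cr1 averaged 157 ± 34.5 CPM in NC_CD8 cells, 2.98 in PDC, 20.9 in Esamhi, 143 in Esamlo and 2.09 ± 0.552 in C_CD8 cells, so that Esamlo cells came next to NC_CD8 cells and PDC did not share it.

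Some of the differences set NC_CD8 cells apart from all of these subsets, and more of them set C_CD8 cells apart. In 256 of the 2253 higher genes (11.4%) every NC_CD8 library was above each of the other 9 WT libraries, as it was in 1.82% of all genes tested. In 1287 of the 2275 lower genes (56.6%) every C_CD8 library was above the other 9, as it was in 9.25% of all genes tested. The genes were called by the contrast of NC_CD8 with C_CD8 libraries, and the libraries of the other CD8+ subset are among the 9. A larger share than over all genes was thus built in by that choice in both cases. Among the higher genes with at least 20 CPM, Cyp7b1 stood furthest above the next subset, at 35.6 ± 6.05 CPM in NC_CD8 cells against 1.8 CPM in Esamlo cells, a ratio of 19.8. Ccr1 had a ratio of 8.88, with 16.0 CPM in Esamlo cells as the next level, and Cd209e a ratio of 8.56. Mab21l3 led the genes of C_CD8 cells, where it was 36.1 times the next level, that of NC_CD8 cells. Xcr1 stood 11.1 times above Esamlo cells, the next subset. This order was set up after the values had been seen, and no test was made of it.

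**Figure D5:**
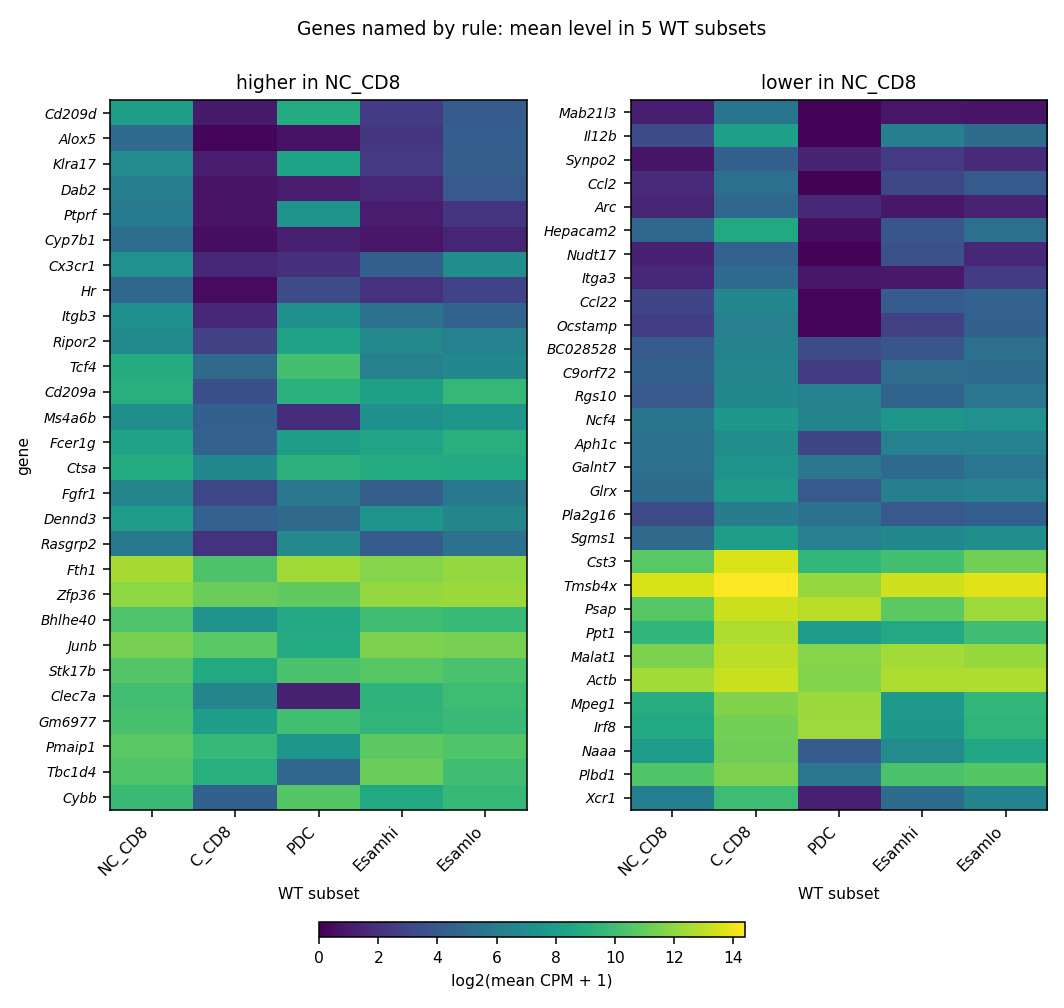
Mean level of genes named by rule in the 5 WT subsets, as log2(mean CPM + 1), with NC_CD8 and C_CD8 cells on the left. Tcf4 is brightest in PDC and next in NC_CD8 cells, and Cybb is bright in every subset but C_CD8. Cyp7b1 and Dab2 are brightest in NC_CD8 cells.

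The same contrast in mice with the Flt3 ITD/+ genotype, an activating internal tandem duplication of Flt3, used 6 other libraries of the same 3 batches. In NC_CD8 ITD against C_CD8 ITD cells 2341 genes (12.9%) were higher and 2536 (14.0%) lower, and with the batch block 3816 (21.1%) and 4001 (22.1%). Of the genes higher in WT, 1743 were also called higher in ITD cells, which is 77.4% of the WT list and 74.5% of the ITD list, and 0 were called lower. Of the genes lower in WT, 1822 were also called lower, which is 80.1% of the WT list and 71.8% of the ITD list, and 0 were called higher. Of the genes named by rule, 29 of 29 higher and 30 of 30 lower ones had the same call in ITD cells. Xcr1 differed by -6.52 in ITD cells and by -3.73 in WT cells, Cd209d by 6.23 and 7.89, Cx3cr1 by 5.13 and 6.23, and Tcf4 by 3.59 and 3.96.

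The difference between the ITD and WT contrasts was tested for every gene. It passed for 1 gene, Ncf4 (0.00553% of those tested), and for 4 with the batch block (0.0221%), which are Ncf4, Cacna1e, Il21r and Hes1. Ncf4 had 15.5, 13.9 and 18.5 CPM in NC_CD8 ITD libraries and 186, 203 and 188 CPM in C_CD8 ITD libraries. The NC_CD8 ITD libraries were all below the NC_CD8 WT libraries given above, and the ITD contrast minus the WT contrast was -1.49 ± 0.22 on the log2 scale (adjusted p = 0.0497). In the same edgeR test its adjusted p was 0.00677 without the NC_CD8 WT library of batch D and 0.0481 without the NC_CD8 ITD library of batch D. Without any other single CD8+ library it was above 0.05, at up to 0.295, and without the filter on low counts it was 0.052. With RLE in place of TMM scaling it was 0.0468, and the DESeq2 Wald test, which passed 40 genes, gave 4.74e-07. For Xcr1 the 2 contrasts were not shown to differ, nor were they shown to be alike.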

How the data were processed

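RNA-seq counts of 24 sorted dendritic cell libraries of mouse spleen were used, 6 of them in the WT comparison. Per the labels' protocols RNA was extracted with PicoPure, some of it after Trizol, and amplified with SMART-seq v4. Per the submitters' processing notes bcl2fastq 1.8.4, Bowtie2 (listed as version 0.4), DESeq2 1.8.2 and the build mm10 were used. For the read counter, annotation, strand setting and sort gates the entry is: not given in the sources used here. Without a strand setting, reads of a gene and an overlapping or antisense gene cannot be told apart. The authors deposited whole-number counts per gene, used here as deposited. A normalized table was not used. Of 39017 gene IDs 37607 had a symbol.

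Counts were tested with edgeR 4.0.16 (R 4.3.3, limma 3.58.1) by the quasi-likelihood test with TMM scaling, the filter filterByExpr (minimum count 10) and 10 group means, without a block, with Benjamini-Hochberg adjustment over all genes. An interaction contrast compared the ITD and WT differences. Alternatives were the experiment batch as a block, RLE scaling, DESeq2 1.42.0, no filter, the 6 or 12 WT libraries alone, glmTreat against a log2 difference of 1 and leaving out each library. The script was tested on simulated data with known changes. The deviations of NC_CD8 and C_CD8 libraries from their group means correlated within the labelled batches, at 0.388 in B, 0.252 in C and 0.193 in D, against at most 0.0965 between batches, so the batch letters pair the libraries. Replicates within each group differed by more than sampling noise (the smallest chi-square statistic was 25.3 times its degrees of freedom).

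The text names the 4 marker genes, members of 27 gene lists, and in each direction 10 genes by largest log2 difference (at least 20 CPM in the higher group and the same direction in every batch), 10 by smallest p and 10 by largest CPM difference. Some genes that the rule takes are not reported here. Members and lists were chosen with earlier results of these data known; 789 of 793 list entries matched. Python 3.11.15 with pandas 2.3.3 and matplotlib 3.10.9 made the summaries and figures.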

Additional observations from a re-analysis of the deposited data

Results flagged for a closer look

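Ncf4, a cytosolic subunit of the phagocyte oxidase, stood out because its NC_CD8 against C_CD8 contrast differed between Flt3 ITD and WT mice, by the test of that difference itself. The contrast was -3.59 in ITD and -2.11 in WT cells on the log2 scale, a difference of -1.49 (edgeR quasi-likelihood test, adjusted p = 0.0497). All 3 NC_CD8 ITD libraries lay below all 3 NC_CD8 WT libraries. With the batch block the adjusted p was 0.0161, and without the filter on low counts it was 0.052. It was 0.00677 without the NC_CD8 WT library of batch D and 0.0481 without the NC_CD8 ITD library of batch D. Without any other single CD8+ library it was above 0.05, at up to 0.295, so the call was mostly lost when 1 library was left out. With RLE scaling the adjusted p was 0.0468, and the DESeq2 Wald test, which passed 40 genes, gave 4.74e-07. No explanation was tested.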

How the results depend on the processing

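Of 720 named or listed genes, 0 that were called in either fit reversed their direction in the alternatives that tested them, which were 651 genes with the 6 libraries alone, 709 with DESeq2 or the 12 WT libraries alone and 718 to 720 in the others. The count of genes called in the WT comparison, 4528, was 7603 with the experiment batch as a replicate block and 1147 when tested against a log2 difference of 1. It was 4484 with RLE scaling, 5231 with DESeq2, 3888 without a filter on low counts, 3741 with the 12 WT libraries alone, 3448 with the 6 libraries alone and 5749 with these and the replicate block. Leaving out 1 library gave 3024 to 4052 calls. In ITD mice the count, 4877, was 7817 with the replicate block and 3557 to 4994 without 1 library. For the difference between the 2 contrasts the count, 1, was 40 with DESeq2, 4 with the replicate block and 0 without a filter, and 0 to 16 without 1 library, with 16 lacking the NC_CD8 WT library of batch D. The replicate block lost the call of 0 of the 720 genes and added 110; the cause was not tested. The test against a log2 difference of 1 lost 157. A gene that missed the threshold with 3 libraries a group is not shown to be alike in both subsets. Sort gates and the number of animals are not known, and p-values measure the spread between these libraries.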
